A study of Drosophila melanogaster with 14 samples.

Results

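The transposable element families HMS-Beagle, HMS-Beagle2, Burdock, flea, Transpac, mdg3, micropia and blastopia were followed in RNA of fly heads. Members were the insertions whose FlyBase symbol carries one of these 8 family names before the brace, in any case. They made up 126 of the 5392 insertions listed. HMS-Beagle had 23 copies, HMS-Beagle2 12, Burdock 22, flea 29, Transpac 6, mdg3 21 and micropia 13. No listed insertion carried the name blastopia, so 7 families have values. At least 1 count was present in 96 of the 126 copies, and the other 30 held 0 counts in every library.

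All 7 are LTR retrotransposons of the Ty3/gypsy group. Such elements are transcribed from one long terminal repeat to the other, encode the structural protein Gag and the Pol polyprotein (protease, reverse transcriptase, RNase H and integrase), and insert new copies through an RNA intermediate. In flies their RNA is held down in the gonads mainly by the piRNA pathway and in somatic tissue mainly by small interfering RNAs. Burdock is a widely used target in reporter assays of germline piRNA silencing. HMS-Beagle was first described at a cuticle protein gene of Drosophila melanogaster, and micropia on the Y chromosome of Drosophila hydei. The elements mdg3, micropia and blastopia form a lineage of their own within the Ty3/gypsy group.

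Total RNA was sequenced from heads of tau transgenic Drosophila melanogaster and of flies labelled as wild type, 3 libraries of each genotype. Tau is the microtubule-binding protein that accumulates in human tauopathies. Flies were kept at 25°C. The heads of 6 flies were pooled for a library and 500 ng of their RNA was used after depletion of ribosomal RNA, so that each genotype is represented by 18 heads. The tau variant, the promoter that drives it, the genetic background of the controls, and the age and sex of the flies were not stated in the labels or the design text. The labels call the libraries independent biological replicates. The table lists no genes other than transposable elements (TEs), so neither the transgene nor markers of head cell types could be checked. The bulk RNA cannot tell fewer expressing cells from less RNA per cell.

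The tau libraries held 76721, 269102 and 331009 counts in TE insertions, against 289818, 277415 and 232572 in the control libraries. Tau 1 was thus the shallowest library, and values that rest on it are less precise. Levels below are CPM, the count of a feature scaled to a fixed total of TE counts and adjusted by TMM factors, given as mean ± SD over 3 libraries where no single library is named. They are relative to all TE reads, so a change common to every element would not be seen. No element lengths were used, so levels are compared between genotypes and not between families.

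Burdock fell in tau heads, mdg3 and micropia rose, and HMS-Beagle, HMS-Beagle2, flea and Transpac did not pass the test. A family sum adds the counts of all copies of a name. Sums were tested over the 116 families of the table with enough counts by edgeR's quasi-likelihood test, and p-values were adjusted by the Benjamini-Hochberg method, with calls at an adjusted p under 0.05. Among the 7 families, 2 were higher in tau (17.2% of all families tested were) and 1 was lower (13.8% of all families tested were). The share called in either direction, 3 of 7, stands beside 31.0% of all families. Groups did not overlap for 3 of the 7 families, and for 43.1% of all families. The median log2 fold change of the 7 was -0.06, against 0.01 over all families.

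Burdock had 16678, 15161 and 11540 CPM in the tau libraries, against 25373, 26922 and 24094 CPM in the control libraries. Every tau library lay below every control library, with the widest spread in tau. The log2 fold change was -0.82 ± 0.13 (SE), with an adjusted p of 0.00162 and a 95% interval of -1.11 to -0.53. The call and direction held in each of the 16 alternatives tried, where the log2 fold change ran from -0.93 to -0.69.

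The family mdg3 had 19042, 19990 and 19670 CPM in the tau libraries, against 16304, 16661 and 16700 CPM in the control libraries. The groups did not overlap, and the libraries of each genotype lay close together. The log2 fold change was 0.24 ± 0.05 (SE), with an adjusted p of 0.00422. This value depends on how 3 copies with identical counts are treated, described below: with them counted once it was 0.55 ± 0.05 (SE), with an adjusted p of 7.5e-05.

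The family micropia had 10947, 10779 and 11189 CPM in the tau libraries, against 8904, 9274 and 8761 CPM in the control libraries. Again the groups did not overlap. The log2 fold change was 0.29 ± 0.05 (SE), with an adjusted p of 0.00251. With the authors' size factors the rises of both families were smaller and did not pass, at 0.17 (adjusted p = 0.168) for mdg3 and 0.22 (adjusted p = 0.105) for micropia. Across all families the calls were 20 higher and 16 lower with TMM factors, against 11 higher and 17 lower with the authors' factors and 13 and 21 with library totals.

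The flea family had 19082, 20642 and 22940 CPM in the tau libraries, against 22662, 24623 and 25201 CPM in the control libraries. The highest tau library exceeded the lowest control library. The log2 fold change was -0.21 ± 0.08 (SE), with an adjusted p of 0.078, just short of a call. It passed in 7 of 16 alternatives, among them library totals (-0.29, adjusted p = 0.0186), DESeq2 (-0.23, adjusted p = 0.027), identical copies counted once (-0.24, adjusted p = 0.0333) and the fit without tau 3 (-0.29, adjusted p = 0.0153).

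HMS-Beagle had 33449, 36677 and 35660 CPM in the tau libraries, against 35905, 39129 and 40641 CPM in the control libraries. The groups overlapped, and the log2 fold change of -0.13 had a 95% interval of -0.28 to 0.02 (adjusted p = 0.177). It passed as lower only with library totals (-0.21, adjusted p = 0.0467). The family HMS-Beagle2 averaged 3480 ± 341 CPM in tau and 3599 ± 103 CPM in control (SD over 3 libraries), with an interval of -0.21 to 0.14 around -0.03. Transpac averaged 14044 ± 1065 CPM in tau and 14648 ± 220 CPM in control (SD over 3 libraries), with an interval of -0.21 to 0.09 around -0.06.

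**Figure D1:**
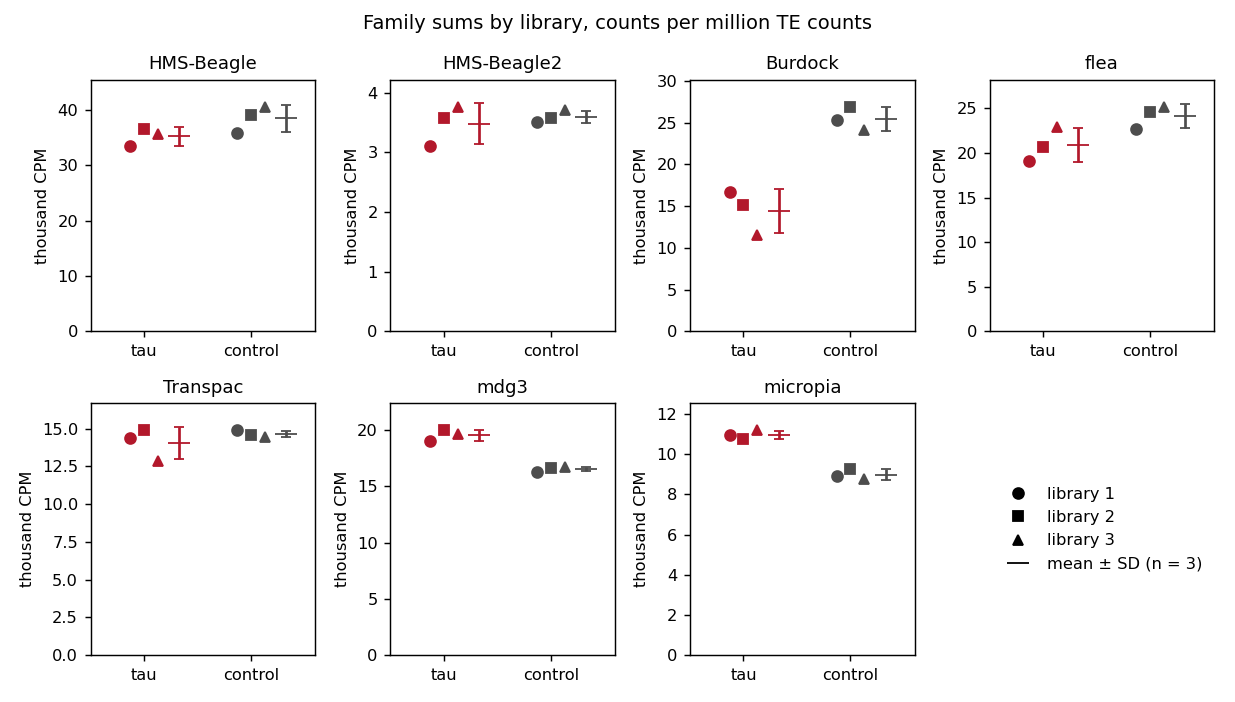
Family sums in CPM divided by 1000 (y axis, from 0) for each of 3 tau (red) and 3 control (grey) libraries, with mean ± SD beside them. The Burdock points lie lower in tau (14460 ± 2640 CPM, against 25463 ± 1416 CPM in control), those of mdg3 and micropia lie higher, and the groups of the other 4 families overlap.

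As a share of all TE counts, the 7 families together held 11.5% ± 0.312 in tau heads and 13.6% ± 0.456 in control heads (SD over 3 libraries). The groups did not overlap, with libraries at 11.2% to 11.9% in tau, against 13.1% to 13.9% in control. No p is given for this sum over chosen families. The difference was -2.04 percentage points. The element copia, with many counts in this table, averaged 163287 ± 28277 CPM in tau and 54241 ± 2655 CPM in control (SD over 3 libraries). Its log2 fold change was 1.59, so the total itself held more copia in tau. With copia left out of the total the difference was -0.67 percentage points. With Burdock left out of the families it was -0.83 percentage points. By themselves, mdg3 and micropia held 2.97% ± 0.026 in tau heads and 2.63% ± 0.041 in control heads (SD over 3 libraries).

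Of 43 other Ty3/gypsy families listed for comparison, 40 were tested: 12 rose, 9 fell and 19 did not pass, with a median log2 fold change of 0.08. They ran from -1.68 (gtwin) to 0.84 (accord, which did not pass), and 3 of them, gtwin and gypsy12 included, had a lower fold change than Burdock. By the root mean square difference of centred log2 CPM over the 6 libraries, the families outside the 8 most like Burdock were the non-LTR element Doc (0.14) and gypsy6 (0.17). Doc had a log2 fold change of -0.91 ± 0.06 (SE, adjusted p = 9.57e-06). This distance includes the difference between tau and control, so a family near Burdock by it falls too, and Doc's fall is no separate support. Most like mdg3 was Stalker4 (0.043), and most like micropia were Stalker (0.058) and Stalker4 (0.070). Both HMS-Beagle (0.053) and HMS-Beagle2 (0.039) lay nearest to Cr1a, flea to jockey (0.084) and Transpac to Circe (0.055).

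In several families single copies differed from each other in the size and direction of their change. Of the 126 copies, 65 had enough counts to be tested, and these held 99.7% of the members' counts. Another 31 had counts but were too low to test, none with more than 100 in all 6 libraries together. Among the tested copies 13 were called, where 5.92% of all insertions tested were: 3 rose (2.56% of all 1249 insertions tested did) and 10 fell (3.36% of all did). The 10 fallen copies include the 3 mdg3 copies with identical counts, which are no separate observations. With 1 library left out, 2 to 4 copies rose and 1 to 5 fell, 1 without control 1, control 2 or control 3, 2 without tau 2, 4 without tau 3 and 5 without tau 1. Groups did not overlap for 29 of the 65 copies, 7 with tau higher and 22 with tau lower, where 29.2% of all tested insertions did not overlap. The median log2 fold change of the 65 was -0.03, against -0.01 over all insertions.

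**Figure D2:**
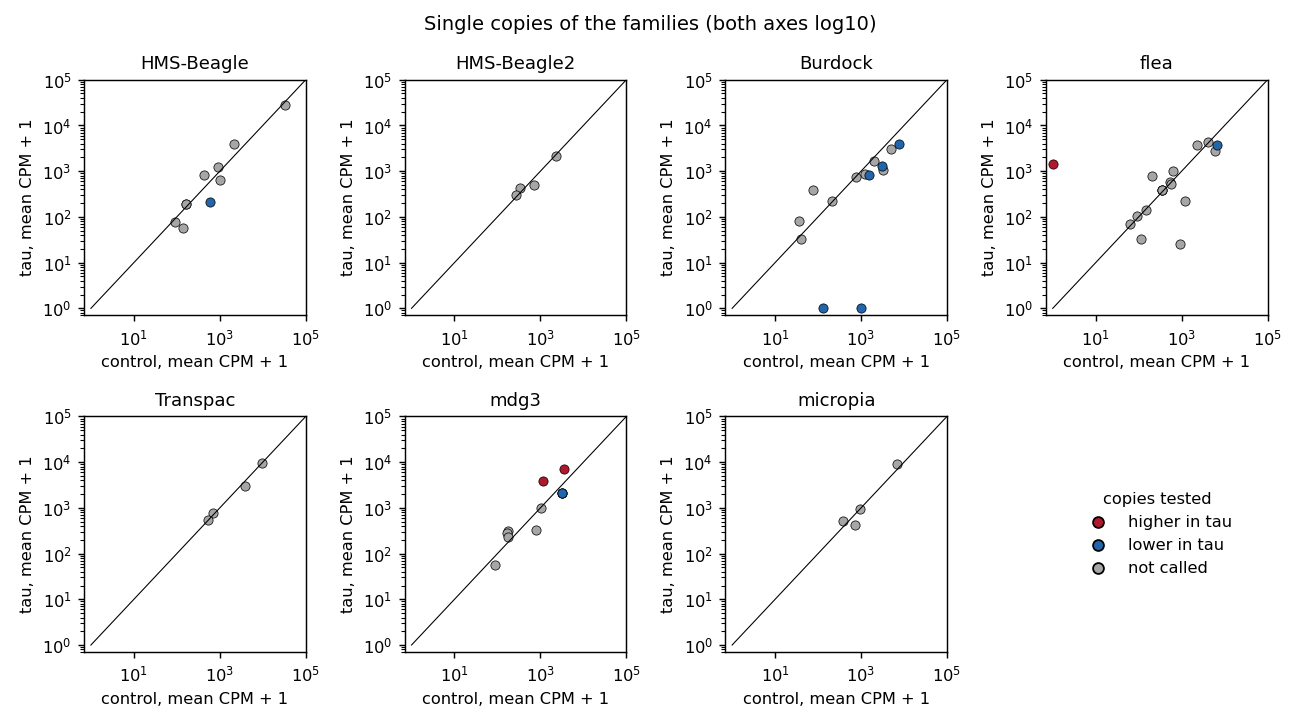
Mean CPM + 1 of each tested copy in tau (y axis) against control (x axis), both on log10 scales, with the line of equality; each point is 1 copy. Copies lower in tau (blue) lie below the line in Burdock, flea, mdg3 and HMS-Beagle, the copies higher in tau (red) are mdg3{}1683, mdg3{}1184 and flea{}810, and points on the lower or left edge had 0 counts in that genotype.

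Unequal change among the copies of a family was tested directly with edgeR's differential usage test, over the 105 families with at least 2 tested copies. It passed for 4 of the 7 families, where 33.3% of all families passed. The adjusted p was 2.37e-14 for flea (F = 13.8 over 18 copies), 4.39e-05 for Burdock (F = 5.25 over 14), 0.00605 for micropia (F = 7.92 over 4) and 0.0341 for mdg3 (F = 2.74 over 11). It was 0.158 for HMS-Beagle2, 0.489 for HMS-Beagle and 0.846 for Transpac. The flea test includes flea{}810 and flea{}704, and the Burdock test includes Burdock{}1394 and Burdock{}313. These copies met the low-count filter through the libraries of 1 genotype. They differed most from their families, by 8.11, -3.19, -7.00 and -4.95 in that order (log2 scale). The test was not run without them, so the flea and Burdock p-values are description. The mdg3 call was lost in 5 of 12 alternatives (adjusted p up to 0.302), among them at 0.0784 where identical copies were counted once, and 0.0894, 0.118 and 0.151 without tau 1, tau 2 and tau 3. The micropia call was lost in 3 of 12 alternatives, among them no filter on low counts (adjusted p = 0.145) and the fit without control 1 (adjusted p = 0.0658).

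In mdg3, copies were called in both directions, and 3 copies carried the same numbers. No single mdg3 copy differed from the rest of its family in the usage test, the lowest adjusted p being 0.0925 (mdg3{}1184). The copies mdg3{}119, mdg3{}144 and mdg3{}1351 each listed 161, 525 and 707 counts in the tau libraries, against 931, 858 and 774 in the control libraries. Among the 961 insertions of the table with at least 100 counts in total, 24 copies in 10 groups matched another copy of their family in all 6 libraries. Members of the families studied here formed 3 of those groups with 8 copies. The treatment of reads that match several copies was not stated, and whether the 3 copies list a single set of reads was not tested. Together they made up 32.5% ± 2.18 of the mdg3 counts in tau and 56.6% ± 1.81 in control (SD over 3 libraries), and a plain family sum gives them that weight.

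Each of the 3 copies averaged 2094 ± 151 CPM in tau and 3163 ± 72 CPM in control (SD over 3 libraries), a log2 fold change of -0.60 ± 0.10 (SE, adjusted p = 0.027). The fall lost its call in each of the 6 fits with 1 library left out, the highest adjusted p being 0.098. The copy mdg3{}1683 had 7080, 7040 and 6666 CPM in the tau libraries, against 3153, 4202 and 3458 CPM in the control libraries. It rose by 0.94 ± 0.13 (SE, log2 scale, adjusted p = 0.0143), and lost its call in 4 of the 6 fits with 1 library left out (adjusted p up to 0.068).

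The copy mdg3{}1184 had 4090, 3921 and 3645 CPM in the tau libraries, against 1240, 1097 and 1072 CPM in the control libraries. The lowest tau library lay far above the highest control library. It rose by 1.77 ± 0.11 (SE, log2 scale, adjusted p = 0.00105) and kept its call in all 13 alternatives, with an adjusted p of at most 0.0357. Together mdg3{}1683 and mdg3{}1184 held 56.0% ± 2.46 of the mdg3 counts in tau and 28.2% ± 2.47 in control (SD over 3 libraries). Without mdg3{}1683 the family's log2 fold change was -0.08 (adjusted p = 0.446). With the identical copies also counted once it was 0.26 (adjusted p = 0.0444).

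The copy mdg3{}1060 averaged 319 ± 117 CPM in tau and 799 ± 221 CPM in control (SD over 3 libraries), without overlap, and did not pass (adjusted p = 0.0939). The other tested mdg3 copies had adjusted p-values from 0.405 to 0.96.

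Burdock fell through many of its copies. Of its 14 tested copies, 10 had a negative log2 fold change and 5 fell, while none rose. The median over the 14 was -0.60. Its most counted copy, Burdock{}1187, had 4076, 4386 and 3526 CPM in the tau libraries, against 6696, 9439 and 6367 CPM in the control libraries. The groups were apart, with a log2 fold change of -0.91 ± 0.18 (SE, adjusted p = 0.0471). Its share of the family was 28.4% ± 3.78 in tau heads and 28.9% ± 4.66 in control heads (SD over 3 libraries), and without it the family's log2 fold change was -0.83 (adjusted p = 0.00659).

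The copies Burdock{}1221 (-1.25 ± 0.26 SE, adjusted p = 0.0495) and Burdock{}320 (-0.90 ± 0.17 SE, adjusted p = 0.0401) fell too. These and Burdock{}1187 lost their calls in 5 or all of the 6 fits with 1 library left out, with adjusted p-values up to 0.141. The copy Burdock{}770 averaged 3100 ± 1069 CPM in tau and 4906 ± 209 CPM in control (SD over 3 libraries), and Burdock{}4321 averaged 1074 ± 692 CPM in tau and 3191 ± 549 CPM in control (SD over 3 libraries). Neither pair of groups overlapped and neither passed (adjusted p = 0.229 for Burdock{}770 and 0.20 for Burdock{}4321).

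Burdock{}1394 had 0 counts in each tau library, against 362, 277 and 188 counts in the control libraries. Burdock{}313 likewise had 0 counts in each tau library, against 35, 40 and 29 counts in the control libraries. With a floor of 3 counts over the 3 tau libraries, these are at least 227-fold lower (adjusted p = 0.00379) and at least 28.6-fold lower (adjusted p = 0.00725), bounds that cover counting error only. Both differed from the rest of the family in the usage test (adjusted p = 3.38e-05 for Burdock{}1394 and 0.0103 for Burdock{}313). Both copies passed the low-count filter through the control libraries alone, so their p-values are description and no separate support. In the usage test 6 of the 65 copies differed, where 3.31% of 1238 copies of the table did. Among the 6 are Burdock{}1394, Burdock{}313, flea{}810 and flea{}704, which met the filter through the libraries of 1 genotype. The comparison with 3.31% is therefore description and no separate support. Burdock{}1394 and Burdock{}313 together made up 4.38% ± 0.802 of the Burdock counts in control (SD, n = 3). Burdock{}1394 kept its call with each library left out and lost it in 1 of all 13 alternatives (adjusted p = 0.135), and Burdock{}313 lost it in 3 of the 6 fits (adjusted p up to 0.065).

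In flea, the most counted copy fell while another copy had counts in tau libraries alone. The copy flea{}148 had 3057, 3877 and 4121 CPM in the tau libraries, against 6452, 6433 and 7012 CPM in the control libraries. It fell by 0.85 ± 0.13 (SE, log2 scale, adjusted p = 0.0238), a call lost in 4 of the 6 fits with 1 library left out (adjusted p up to 0.098). Its share of the family was 17.9% ± 1.92 in tau heads and 27.1% ± 1.44 in control heads (SD over 3 libraries). The copy flea{}102 averaged 2785 ± 793 CPM in tau and 5823 ± 581 CPM in control (SD over 3 libraries), without overlap, at a log2 fold change of -1.06 (adjusted p = 0.0607).

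The copy flea{}810 had 119, 372 and 424 counts in the tau libraries, against 0 counts in each control library. With the floor of 3 counts over the 3 control libraries it was at least 370-fold higher (adjusted p = 0.0012). The copy flea{}810 passed the low-count filter through the tau libraries alone. Its p-values, here and in the usage test, are therefore description and no separate support. It kept its call with each library left out and lost it in 1 of all 13 alternatives (adjusted p = 0.134). It made up 6.98% ± 1.20 of the flea counts in tau (SD, n = 3). The reverse case was flea{}704, with 0, 0 and 24 counts in the tau libraries, against 167, 378 and 182 counts in the control libraries. It did not pass over all insertions (adjusted p = 0.0939). As flea{}704 met the low-count filter through the control libraries, its p-values too are description and no separate support. In the usage test flea{}704 differed from the rest of its family (adjusted p = 5.53e-07), as did flea{}810 (5.65e-15), flea{}3 (0.00601) and flea{}877 (0.0113).

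The copy flea{}1415 averaged 3729 ± 731 CPM in tau and 2285 ± 340 CPM in control (SD over 3 libraries), without overlap (0.71 ± 0.19 SE, adjusted p = 0.11). The copy flea{}114 averaged 4238 ± 398 CPM in tau and 4211 ± 699 CPM in control (SD over 3 libraries). Of the 18 tested flea copies, 11 had a positive and 7 a negative log2 fold change. The copies flea{}470, flea{}756 and flea{}771 carried identical counts in all 6 libraries.

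**Figure D3:**
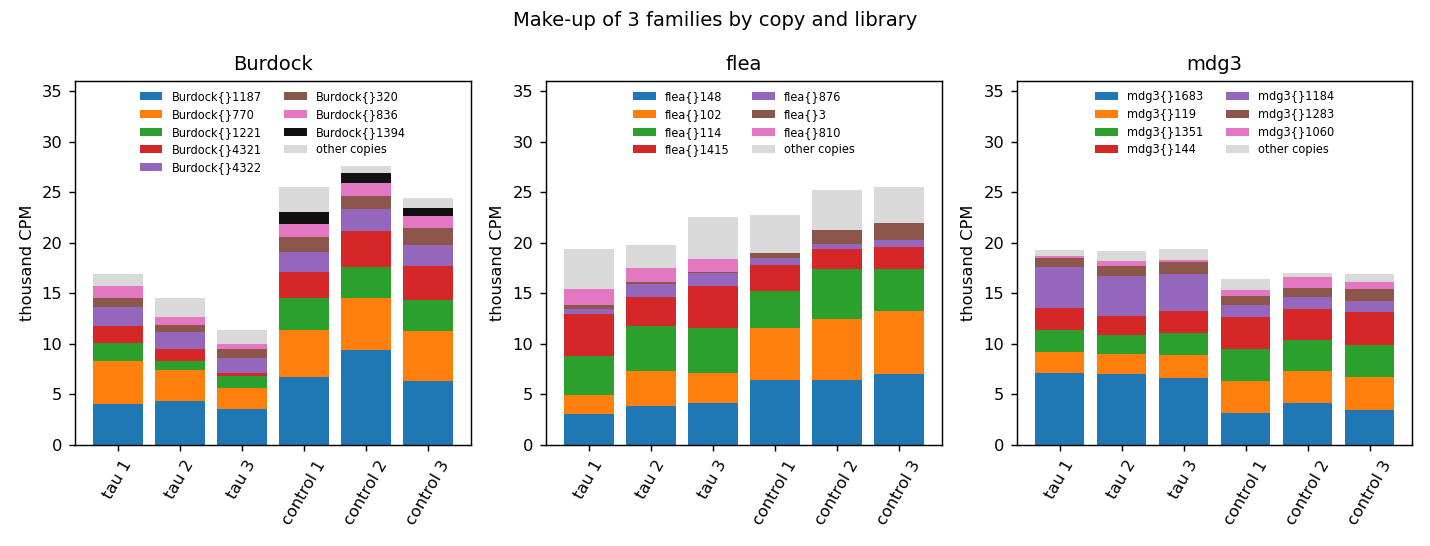
CPM, divided by 1000, of the most counted copies (stacked colours) and of all other copies (light grey) of Burdock, flea and mdg3 in each library, tau at the left of each panel. In mdg3 the blocks of mdg3{}1683 and mdg3{}1184 are larger in tau and those of the 3 copies with identical counts smaller, Burdock{}1394 appears in control libraries only, and flea{}810 in tau libraries only.

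In the other families a single copy held most of the counts. In micropia, micropia{}1243 held 82.6% ± 3.40 of the counts in tau and 77.0% ± 1.86 in control (SD over 3 libraries). It averaged 8950 ± 659 CPM in tau and 7016 ± 405 CPM in control (SD over 3 libraries). Every tau library lay above every control library, yet the copy did not pass over all insertions (0.35 ± 0.09 SE, adjusted p = 0.0952). The rise of the family rested on it: without it the log2 fold change was -0.12 (adjusted p = 0.552). The copy micropia{}226 averaged 922 ± 122 CPM in tau and 955 ± 36 CPM in control, and micropia{}1338 averaged 420 ± 130 CPM in tau and 736 ± 69 CPM in control (SD over 3 libraries, adjusted p = 0.158).

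In HMS-Beagle, HMS-Beagle{}390 held 78.6% ± 4.94 of the counts in tau and 85.1% ± 3.37 in control (SD over 3 libraries). It had 25020, 29411 and 27637 CPM in the tau libraries, against 31572, 34653 and 33447 CPM in the control libraries. The groups did not overlap, with a log2 fold change of -0.28 ± 0.08 (SE) that did not pass (adjusted p = 0.116). Without it the family's log2 fold change turned to 0.33 and did not pass (adjusted p = 0.31). The copy HMS-Beagle{}347 fell, at 215 ± 48 CPM in tau and 600 ± 116 CPM in control (SD over 3 libraries, log2 fold change -1.46 ± 0.25 SE, adjusted p = 0.0295), a call lost in each of the 6 fits with 1 library left out (adjusted p up to 0.111).

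The second copy by count, HMS-Beagle{}26, had 406, 709 and 1209 counts in the tau libraries, against 137, 536 and 988 counts in the control libraries, or 3935 ± 1432 CPM in tau and 2178 ± 1848 CPM in control (SD over 3 libraries). The spread among the control libraries was as large as the difference between genotypes (adjusted p = 0.64). In HMS-Beagle2, HMS-Beagle2{}265 held 63.4% ± 2.34 of the counts in tau heads and 62.7% ± 3.91 in control, and averaged 2177 ± 218 CPM in tau and 2291 ± 216 CPM in control (SD over 3 libraries). HMS-Beagle2{}5171 averaged 499 ± 81 CPM in tau and 701 ± 44 CPM in control (SD over 3 libraries), without overlap (adjusted p = 0.197). In Transpac, Transpac{}1439 averaged 9485 ± 630 CPM in tau and 9846 ± 233 CPM in control, and Transpac{}32 averaged 3061 ± 479 CPM in tau and 3760 ± 332 CPM in control (SD over 3 libraries), with adjusted p-values of 0.799 for Transpac{}1439 and 0.362 for Transpac{}32.

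Some copies came and went between libraries of a single genotype, which limits what 0 counts in a genotype can say. Copies that reached 30 counts in some library but 0 in a sister library of that genotype numbered 11 here and 124 in the whole table. Control 2 was the library at 0 for 7 of the 11, and for 22 of the 124. Tau 1, the shallowest library, was at 0 for 1 of the 11 and for 63 of the 124. The copy Burdock{}74 had 31, 313 and 215 counts in the tau libraries, against 515, 0 and 123 in the control libraries. The copies mdg3{}1215 and mdg3{}1642, and the pair HMS-Beagle{}101 and HMS-Beagle{}1214 with identical counts, were also at 0 in control 2 and at 58 to 80 counts in the other control libraries.

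Burdock{}CG42345[664] had 31, 98 and 124 counts in the tau libraries, against 0, 64 and 0 counts in the control libraries. The copy HMS-Beagle{}318 had 81 counts in control 2 and mdg3{}290 had 100 counts in control 1, with 0 counts in the other 5 libraries. The copy flea{}423 had 0 counts in each tau library, against 31, 28 and 0 counts in the control libraries. These last 3 were too low to be tested. With all copies of this kind left out, Burdock stood at -0.90 (adjusted p = 0.00197), mdg3 at 0.22 (adjusted p = 0.0134) and micropia at 0.28 (adjusted p = 0.00515).

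**Figure D4:**
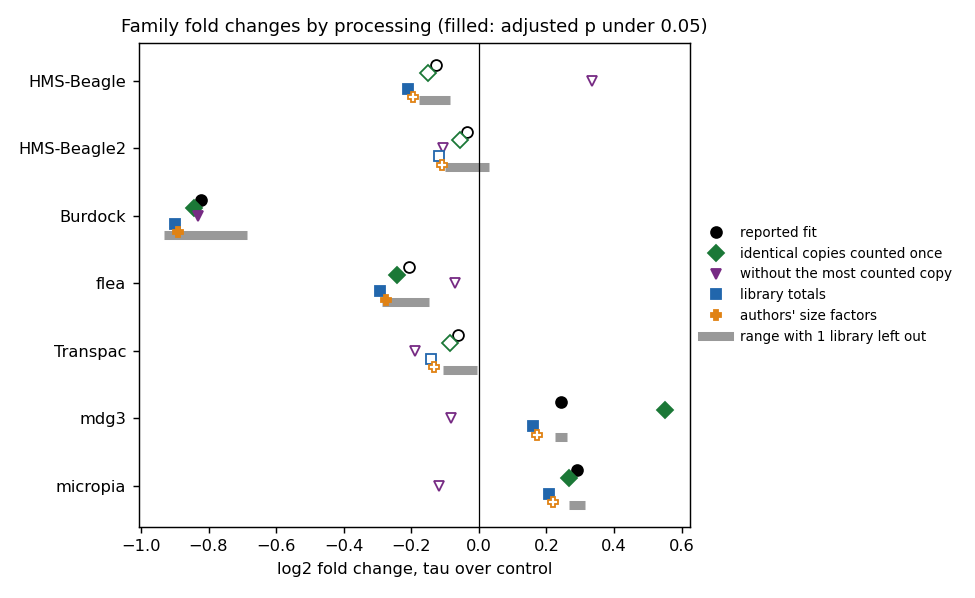
Log2 fold change of each family sum, tau over control (x axis), in the fit reported and under 4 alternatives, with filled symbols where the adjusted p was under 0.05 and grey bars for the range with 1 library left out. Burdock stays between -0.93 and -0.69 in the settings drawn, while mdg3 is at 0.55 with identical copies counted once and 0.24 as reported, and HMS-Beagle, mdg3 and micropia change sign without their most counted copy.

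The authors' deposited table lists 4 of the members' copies as higher and 16 as lower at an adjusted p under 0.05, of 67 with such a value, where 9.53% of all insertions with a value pass. It gives log2 fold changes of 5.41 for flea{}810, 1.65 for mdg3{}1184, 0.90 for mdg3{}1683 and 0.31 for micropia{}1243 (adjusted p = 0.00986). For flea{}810, with 0 counts in control, the edgeR fit gave 11.46. The authors' value and the edgeR value are unlike estimates there, and neither is the bound given above. The authors' deposited table also lists HMS-Beagle{}390 (-0.30, adjusted p = 0.0015) and flea{}102 (-0.97, adjusted p = 1.58e-05) as lower, which did not pass in edgeR. The same holds for mdg3{}1060 (-1.03, adjusted p = 0.00333) and flea{}3 (-1.21, adjusted p = 0.00439). It holds too for Burdock{}4322 (-0.33, adjusted p = 0.0298) and Burdock{}4321 (-0.96, adjusted p = 0.0379). The 16 lower copies include the 3 mdg3 copies with identical counts.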

How the data were processed

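The deposited reads had been selected by the authors with sortmerna, using FlyBase transposable elements as the reference (series design text). Trimmomatic 0.36 and DESeq2 1.14.1 were used, per the submitters' processing notes. The deposited table holds raw counts per insertion and library. It also holds the authors' mean of normalised counts (a signal scaled by their size factors), their log2 fold changes and their adjusted p-values. No label or header names a genome build, a strand setting for counting or how reads matching more than 1 copy were assigned. Copies could therefore share or exchange reads, and values of single copies are uncertain. The library kit keeps strand, per the labels. The depth was 76721 to 331009 counts per library. Symbols matched 5390 of 5392 insertions, and the 2 without one held 0 counts.

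Counts of 123 families and of single insertions were fitted whole with edgeR 4.0.16 in R 4.3.3 (TMM factors, default low-count filter, quasi-likelihood F-test, two-sided), with Benjamini-Hochberg adjustment over all families or all insertions tested. SE is the log2 fold change over the root of F. Family and copy fits had their own TMM factors, so CPM of copies do not add exactly to family CPM. Unequal change of copies was tested with diffSpliceDGE. Functions were tested on simulated data.

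All 7 families were described. Named copies were those past the threshold without overlap, the 2 with most counts per family, and those at 0 in a genotype with at least 30 counts in the other; flea{}704, flea{}1415, flea{}114, mdg3{}1060, Burdock{}4321, micropia{}1338, Burdock{}74 and other copies shown were named after their values were seen. The members, lists and tests were chosen with earlier results of these data known. Alternatives were library totals, the authors' size factors (solved from their mean of normalised counts), TMM factors without copia, no filter, DESeq2 1.42.0, a replicate block, left-out libraries and family sums without the most counted copy. Counting identical copies once and leaving out copies absent from 1 library were chosen after seeing the data. The small RNA table was not used, since no sequences or coordinates of the copies were at hand to match it, and no sequences are printed for the same reason.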

Additional observations from a re-analysis of the deposited data

How the results depend on the processing

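The numbers of families called, 2 higher and 1 lower of the 7, became 0 higher with the authors' size factors and without each family's most counted copy, and 1 higher when identical copies were also counted once. Lower families numbered 3 with library totals. They numbered 2 with the authors' size factors, TMM factors without copia, DESeq2, the replicate block or identical copies counted once, and 1 to 2 with 1 library left out, the added family being flea (and HMS-Beagle with library totals). Over all families, 20 higher became 13 when library totals were used, 11 with the authors' size factors and 10 without the most counted copy, with or without identical copies counted once, and 16 lower became 7 in those last settings. With 1 library left out, 2 of the 7 families stayed higher, and all families gave 14 to 20 higher and 13 to 15 lower.

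Copy calls were less stable. The 3 higher and 10 lower copies of these families became 2 to 4 and 1 to 5 with 1 library left out, and 4 lower with no filter. Without control 1, control 2 or control 3 a single copy was lower, 1 each, without tau 2 there were 2, without tau 3 there were 4 and without tau 1 there were 5. Over all insertions, 32 higher and 42 lower became 9 to 18 and 7 to 34 with 1 library left out, 21 higher with no filter, and 59 and 70 with DESeq2.

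The correlations of same-numbered libraries' deviations were -0.013, 0.061 and 0.0055 over insertions, and -0.025, 0.11 and 0.26 over families for numbers 1, 2 and 3. Not every pair was over 0.1 at either level, so the numbers were not taken to pair the libraries. With the replicate block, 1 copy of these families was higher and 0 lower, 6 and 3 over all insertions, and 2 of 7 and 23 of all 105 families had unequal copies, against 4 and 35 without the block. The block lost the unequal change of mdg3 (adjusted p = 0.302) and micropia (0.052) and the calls of Burdock{}1394 (0.135) and flea{}810 (0.134), and it made the flea family a call (-0.21, adjusted p = 0.0261).

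Directions reversed for HMS-Beagle without its most counted copy (0.33, also 0.33 with identical copies counted once), for mdg3 (-0.082) and micropia (-0.12 and -0.13) likewise. With 1 library left out, HMS-Beagle2 ran from -0.10 to 0.028, HMS-Beagle2{}265 from -0.14 to 0.0085 and micropia{}226 from -0.13 to 0.051, each above 0 without tau 1. None of these passed. The cause was not tested. Library totals, the authors' size factors, TMM factors without copia, no filter, the block and DESeq2 changed no family's direction. The planned match of small RNAs to these families was not run. Tau 1, the shallowest library, limits the precision of low copies.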
